A study of Mus musculus with 6 samples.

Results

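Transcript levels of 10 genes that write, copy and erase DNA methylation and Polycomb chromatin were set side by side in mouse Th17 cells cultured in oligomycin (2.5 ng/ml) or in its vehicle, DMSO. Oligomycin blocks the mitochondrial ATP synthase. The genes were chosen by name: Dnmt1, Uhrf1, Hells, Dnmt3a, Tet2, Tet3, Ezh2, Suz12, Eed and Kdm6b. Each has 1 row among the 10041 gene rows of the deposited table, and all 10 entered the test with the other genes (9986 rows tested). The oligomycin group and the DMSO group held 3 libraries each. All 6 cultures started from naive CD4 T cells and ran for 48 h under the same Th17-polarizing stimulus. It joined antibodies to CD3e (10 µg/ml, coated on the plate) and CD28 (1 µg/ml) with 20 ng/ml of IL-6, 10 ng/ml of IL-23 and 2.5 ng/ml of TGFb1. The labels give no genotype, strain, age or sex. They do not say whether the libraries of a group came from separate mice or cultures, so p-values measure the spread between these libraries, which may be technical. Sample titles share a number between a DMSO and an oligomycin sample. No column could be linked to a title, so the main fit is unpaired. Levels are in FPKM, a fragment count divided by transcript length and library size. The sequencing depth behind them is unknown, and replicate numbers are those of the table's columns.

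DNA methylation in mammals is copied at each round of replication: UHRF1 recognizes DNA methylated on the parental strand behind the fork, DNMT1 restores the missing methyl group, and HELLS, a chromatin remodeler, gives access to packed DNA. DNMT3A writes new methylation, and the TET enzymes oxidize methylated cytosine, the first step of its removal. PRC2, built on EZH2 (or EZH1), SUZ12 and EED, places the silencing mark H3K27me3, and KDM6B takes it off. In CD4 T cells these enzymes are known for keeping cytokine genes of other helper lineages silent and for opening those of the chosen lineage.

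With oligomycin, the maintenance methylation genes Dnmt1 and Uhrf1 and the PRC2 genes Ezh2 and Suz12 fell, while the de novo methyltransferase gene Dnmt3a, the oxidase gene Tet3 and the H3K27 demethylase gene Kdm6b rose. Ezh2 reached 52.5% of its DMSO mean and Uhrf1 58.3%, and the means of Tet3 and Kdm6b were 2.32-fold and 2.04-fold higher. Hells, Tet2 and Eed did not pass the test (limma on log2(FPKM + 1), adjusted p under 0.05 over all genes tested). Thus 4 of the 10 genes were called lower, against 16.1% of all tested genes, and 3 were called higher, against 14.0%. In all 10 genes the oligomycin values and the DMSO values did not overlap, which held for 47.3% of all tested genes. FPKM give a gene's level against the rest of its library, and in bulk RNA fewer cells of a type and less RNA per cell cannot be told apart.

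**Figure D1:**
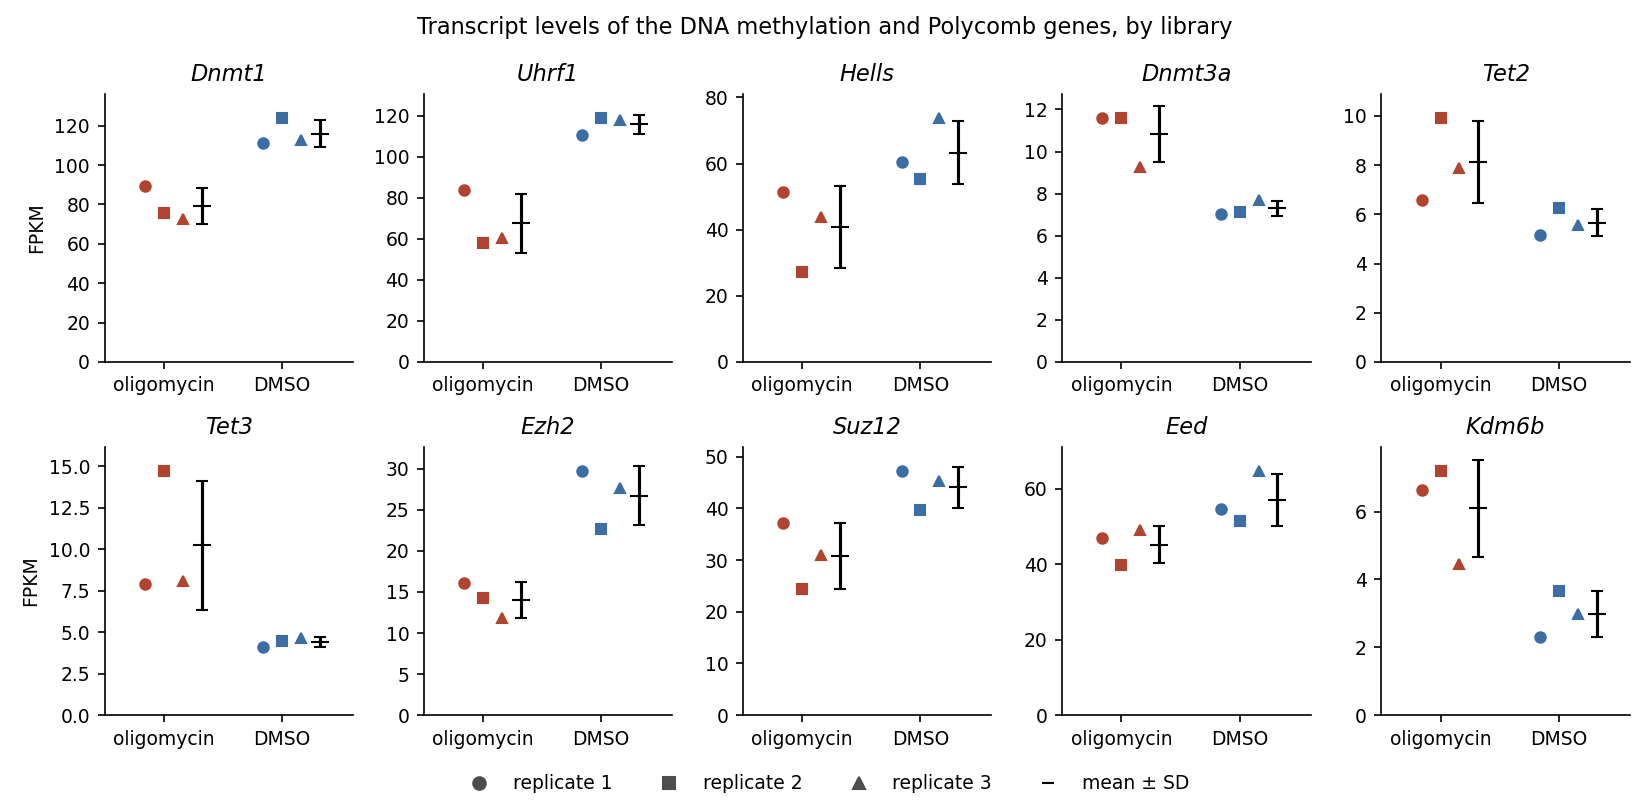
FPKM (y axis, from 0, with a scale of its own in each panel) of the 10 genes in the 3 oligomycin and 3 DMSO libraries; symbols mark the column number, and the bar beside the points is mean ± SD. The groups are separate in every panel, by 26.5 FPKM in Uhrf1 but by 0.329 FPKM in Tet2.

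The libraries were those of T cells by their markers. Cd3e, Cd3d, Cd3g and Cd4 all lay above 40 FPKM in every library and were not called. Il17a, the signature cytokine gene, averaged 12.5 ± 2.45 FPKM with oligomycin and 247 ± 15.4 FPKM with DMSO (SD, n = 3 each). Of 20 markers of B, CD8 T, NK, myeloid, dendritic and erythroid cells, 2 had a row and 18 are not analysed here (Cd8b1, 2.41 to 3.30 FPKM with oligomycin and 2.63 to 3.12 with DMSO, and Klre1, 0 to 0.469 with oligomycin and 1.18 to 2.03 with DMSO). Klre1 entered the test only through its DMSO values, so its difference is a description, and the part of such cells in the results was not tested. Across tested genes, which are not independent replicates, Pearson correlations of log2(FPKM + 1) ran from 0.940 to 0.962 within oligomycin and from 0.963 to 0.969 within DMSO.

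Sites of E2F factors, which drive genes of DNA replication, were looked for in the promoters of the members. RefSeq windows of 250 bases before to 50 after a start (GRCm38.p6) were at hand for 9 of the 10 genes. They were searched on both strands for 4 forms of that site: TTTCCCGC, TTTGGCGC, TTTCGCGC and TTTGCCGC. A form was found in Dnmt1, Uhrf1, Hells, Ezh2 and Suz12, and in none of the windows of Dnmt3a, Tet2, Tet3 and Eed. The 4 members that fell thus all held a form, as did Hells, and of the members that rose Dnmt3a and Tet3 held none. Of the tested genes with a window, 5.35% of 7102 held a form in any window (4.43% of 9057 single windows), as did 7.75% of genes called lower and 3.12% of genes called higher. The stretches around the matches of these 5 members are shown because the form and its place differ between them; capitals mark the E2F letters, each is read along its gene's strand, and positions count from the RefSeq start (Dnmt1 has 3 windows and Uhrf1 has 2).
Dnmt1, chr9:20952824-20952853, minus strand, TTTCGCGC on the opposite strand at -219 to -212: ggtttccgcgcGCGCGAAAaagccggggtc
Dnmt1, chr9:20952574-20952601, minus strand, 34 to 41 after the same start: gcggggcagcgTTTGGCGCgggctgtgc
Uhrf1, chr17:56304102-56304161, plus strand, -185 to -178: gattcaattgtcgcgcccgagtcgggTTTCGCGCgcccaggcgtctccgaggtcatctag
Hells, chr19:38930917-38930946, plus strand, -62 to -55: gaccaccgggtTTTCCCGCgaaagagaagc
Ezh2, chr6:47595009-47595038, minus strand, 4 to 11: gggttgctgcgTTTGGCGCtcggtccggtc
Suz12, chr11:79992861-79992920, plus strand, -219 to -212: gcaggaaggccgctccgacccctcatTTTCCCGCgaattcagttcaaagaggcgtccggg

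CCAAT, the site of NF-Y, was found among members that fell, rose or were not called: it was present in a window of Dnmt1, Uhrf1, Ezh2, Suz12, Eed and Tet3 (44.1% of tested genes). TTTGAA or TTCGAA, the CHR site of mitotic genes, was present in Dnmt1, Suz12 and Eed (16% of tested genes). No E2F match overlapped a match of these. In the cell cycle and replication list described further on, 33.3% of 39 genes held an E2F form, 43.6% a CHR site and 71.8% CCAAT. A CHR site was present in 23.3% of genes called lower and 13.9% of genes called higher, and CCAAT in 48.8% of genes called lower and 44% of genes called higher. CG pairs, the substrate of the DNA methyltransferases, numbered 57 in the Tet2 window, 47 in the richest Dnmt3a window and 41 in that of Suz12. Hells held 34, Dnmt1 and Uhrf1 33 each in their richest windows, and Ezh2, Tet3 and Eed 31, 22 and 17. The median was 33 over the 9 members and 23 over tested genes, and each E2F form searched itself holds a CG pair. A match is a description of letters and was not tested as a binding site.

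Dnmt1 (XLOC_021529, chromosome 9, 20907206 to 20959888, GRCm38, minus strand), the maintenance methyltransferase, had 89.5, 75.7 and 72.5 FPKM in the oligomycin libraries and 111, 124 and 113 FPKM in the DMSO libraries. The highest oligomycin library lay 21.4 FPKM below the lowest DMSO library. Dnmt1 fell by 0.55 on the log2 scale (SE 0.12, limma adjusted p = 0.0125). Uhrf1 (XLOC_008633, chromosome 17, 56303337 to 56323486, plus strand), which brings DNMT1 to newly replicated DNA, had 84.0, 58.2 and 60.4 FPKM with oligomycin and 110.5, 119 and 118 FPKM with DMSO. All 3 oligomycin libraries were low, replicate 1 the least so. The log2 change of Uhrf1 was -0.79 (SE 0.15, adjusted p = 0.00662). The call of Dnmt1 was lost without DMSO replicate 2 (adjusted p = 0.0501), and its change was -0.36 after quantile normalization (adjusted p = 0.0273).

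Hells (XLOC_010088, chromosome 19, 38930990 to 38968277, plus strand), the remodeler, had 51.3, 27.2 and 43.8 FPKM with oligomycin and 60.5, 55.4 and 73.8 FPKM with DMSO. Oligomycin replicate 2 was far below the remaining libraries, and the groups were 4.17 FPKM apart. The log2 change was -0.66 with a 95% interval from -1.17 to -0.15 (adjusted p = 0.0545), so Hells was not called. Without oligomycin replicate 1 the change was -0.84 (adjusted p = 0.0205), without oligomycin replicate 2 it was -0.40 (0.0937), and Hells was also called in the fit without rows that share a locus (0.0400).

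Dnmt3a (XLOC_004091, chromosome 12, 3806980 to 3914443, plus strand), the de novo methyltransferase, moved the other way. It had 11.6, 11.6 and 9.28 FPKM in the oligomycin libraries and 7.03, 7.15 and 7.71 FPKM in the DMSO libraries. All oligomycin libraries were above all DMSO libraries, replicate 3 by the least. Dnmt3a rose by 0.51 (SE 0.13, adjusted p = 0.0189), a 1.48-fold higher mean. Without DMSO replicate 1, 2 or 3 it was not called (adjusted p = 0.0628, 0.0581 and 0.05). Dnmt3b, the second de novo enzyme, stood at 4.38 ± 0.588 FPKM with oligomycin and 3.41 ± 0.199 FPKM with DMSO (adjusted p = 0.160).

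The TET oxidase genes were both low in DMSO cultures. Tet3 (XLOC_017240, chromosome 6, 83362374 to 83441678, minus strand) had 7.91, 14.7 and 8.09 FPKM with oligomycin and 4.09, 4.48 and 4.64 FPKM with DMSO. Oligomycin replicate 2 was the highest, and the remaining oligomycin libraries also exceeded every DMSO library. Tet3 rose by 1.00 (SE 0.22, adjusted p = 0.00987), and by 0.74 without oligomycin replicate 2 (adjusted p = 0.00625). Tet2 (XLOC_013568, chromosome 3, 133463677 to 133544390, minus strand), the main oxidase of T cells, had 6.59, 9.92 and 7.87 FPKM with oligomycin and 5.16, 6.27 and 5.56 FPKM with DMSO. The lowest oligomycin value was 0.329 FPKM above the highest DMSO value. Tet2 was not called (log2 change 0.44, 95% interval 0.08 to 0.80, adjusted p = 0.0660), and was called without oligomycin replicate 1 (0.57, adjusted p = 0.0284).

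Ezh2 (XLOC_017103, chromosome 6, 47530274 to 47595030, minus strand), the catalytic subunit of PRC2 in dividing cells, had 16.1, 14.2 and 11.8 FPKM in the oligomycin libraries and 29.7, 22.7 and 27.7 FPKM in the DMSO libraries. Every oligomycin library was at least 6.62 FPKM below every DMSO library. Ezh2 fell by 0.89 (SE 0.15, adjusted p = 0.00360). Suz12 (XLOC_002835, chromosome 11, 79993106 to 80034123, plus strand), the scaffold of the complex, had 37.1, 24.4 and 30.9 FPKM with oligomycin and 47.2, 39.7 and 45.3 FPKM with DMSO. The groups were 2.55 FPKM apart, with oligomycin replicate 1 next to DMSO. Suz12 fell by 0.52 (SE 0.16, adjusted p = 0.0401). Suz12 was not called after quantile normalization (adjusted p = 0.0691), nor without any 1 library other than oligomycin replicate 1 (0.0554 to 0.121).

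Eed (XLOC_019224, chromosome 7, 89954654 to 89980976, minus strand), the subunit that reads H3K27me3, had 46.8, 39.7 and 48.9 FPKM with oligomycin and 54.7, 51.4 and 64.6 FPKM with DMSO. The groups were 2.52 FPKM apart. Eed was not called (log2 change -0.33, 95% interval -0.63 to -0.02, adjusted p = 0.0968). Kdm6b (XLOC_003518, chromosome 11, 69398518 to 69413675, minus strand), the H3K27 demethylase also known as JMJD3, had 6.62, 7.19 and 4.46 FPKM with oligomycin and 2.30, 3.65 and 2.99 FPKM with DMSO. All oligomycin libraries were high, replicate 3 the least so, and the groups were 0.812 FPKM apart. Kdm6b rose by 0.82 (SE 0.20, adjusted p = 0.0156), not called without DMSO replicate 1 (adjusted p = 0.0558). Kdm6a, its X-linked relative, had 10.0, 10.5 and 9.93 FPKM with oligomycin and 9.31, 8.51 and 9.82 FPKM with DMSO (log2 change 0.13, 95% interval -0.13 to 0.38).

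**Figure D2:**
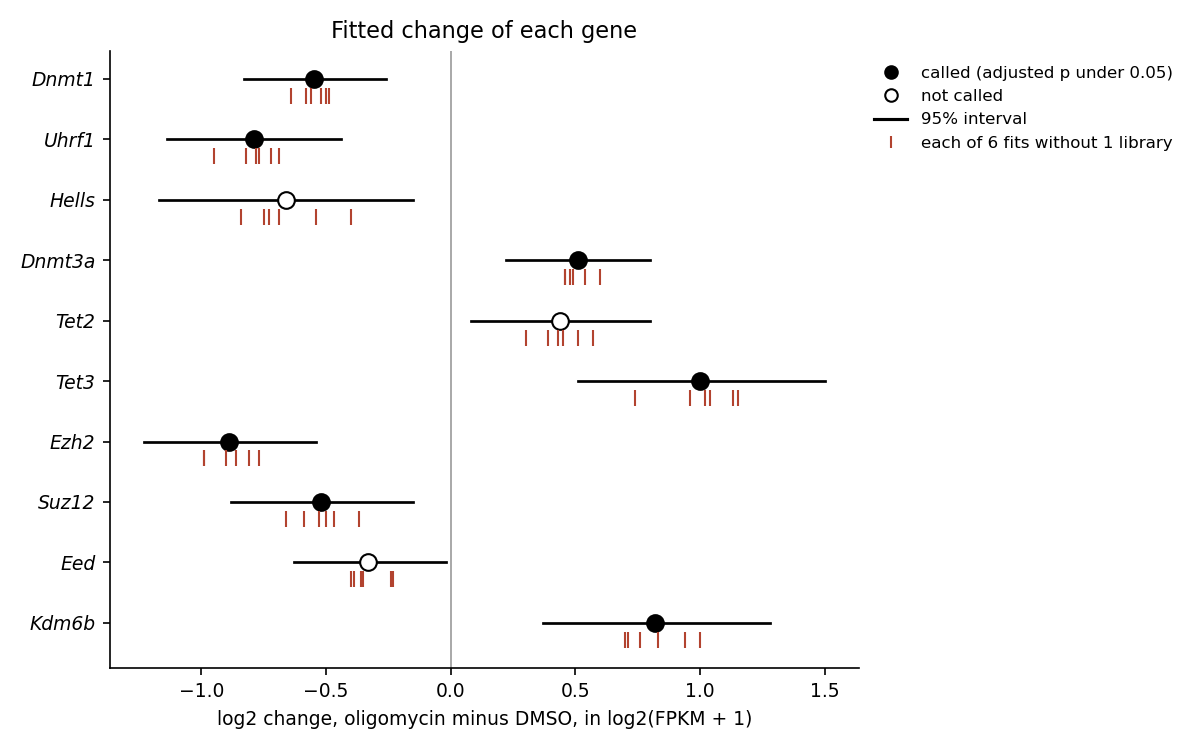
Fitted change of each gene (x axis: oligomycin minus DMSO in log2(FPKM + 1)) with its 95% interval; filled points passed an adjusted p of 0.05, open points did not, and red ticks are the 6 fits that leave out 1 library. No tick crosses 0 for any gene, while the ticks of Hells run from -0.84 to -0.40 and those of Tet3 from 0.74 to 1.15.

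Uhrf1, Tet3 and Ezh2 were called in all 14 alternative fits, and no gene changed direction in any alternative. The added 1 FPKM understates changes of genes with low values: with 0.1 in its place the changes of Kdm6b and Tet3 were 1.00 and 1.14. No other row of the table overlapped these 10 loci. In the GENCODE M21 annotation, exons of Kdm6b and Dnmt3a share 286 and 133 bases with the opposite-strand transcripts Kdm6bos and Dnmt3aos. Eed, Suz12 and Ezh2 share 261, 178 and 174 bases with opposite-strand noncoding genes. The strand of the libraries is not given in the sources used here, so reads from these stretches cannot be assigned to 1 strand.

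The order of levels differed between the groups in neighbouring pairs: Dnmt1 with Uhrf1, Eed with Hells and Tet3 with Tet2 changed places. With oligomycin the means ran from Dnmt1 (79.2 FPKM) through Uhrf1 (67.5), Eed (45.1), Hells (40.7), Suz12 (30.8), Ezh2 (14), Dnmt3a (10.8), Tet3 (10.2) and Tet2 (8.13) to Kdm6b (6.09). With DMSO they ran from Uhrf1 (116) and Dnmt1 (116) through Hells (63.3), Eed (56.9), Suz12 (44.1), Ezh2 (26.7), Dnmt3a (7.30), Tet2 (5.66) and Tet3 (4.40) to Kdm6b (2.98). In the oligomycin libraries only Uhrf1 and Eed, Suz12 and Ezh2, and Ezh2 and Dnmt3a were neighbours whose values did not overlap. In the DMSO libraries every pair of neighbours was separate except Uhrf1 with Dnmt1 and Hells with Eed. Among all tested genes Dnmt1 had percentile 90.4 with oligomycin and 92.8 with DMSO, and Kdm6b had 25.3 with oligomycin and 12.3 with DMSO.

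Ratios of 2 genes within a library do not depend on how libraries are scaled to each other, and FPKM are per length. Ezh2 and Ezh1, the alternative catalytic subunits of PRC2, came close to parity with oligomycin: the ratio of their FPKM was 1.18, 0.707 and 0.724 in the oligomycin libraries and 4.57, 2.77 and 4.29 in the DMSO libraries. Ezh1, the subunit known from resting cells, rose by itself, at 13.7, 20.1 and 16.3 FPKM with oligomycin and 6.51, 8.20 and 6.45 FPKM with DMSO (log2 change 1.12, SE 0.16, adjusted p = 0.00160). It was called in all 14 alternatives. The ratio of Ezh2 to Kdm6b, a writer to an eraser of H3K27 methylation, was 2.44, 1.97 and 2.64 with oligomycin and 12.9, 6.24 and 9.24 with DMSO. This pair leaves out Ezh1, which rose, and Kdm6a, which exceeded Kdm6b in every library. Kdm6a averaged 10.2 FPKM with oligomycin and 9.21 FPKM with DMSO. The balance of all writers and erasers was not tested. The ratio of Dnmt1 to Dnmt3a, maintenance to de novo enzyme, was 7.69, 6.53 and 7.81 with oligomycin and 15.8, 17.3 and 14.6 with DMSO.

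The ratio of Dnmt1 to Tet3 was 11.3, 5.15 and 8.97 with oligomycin and 27.1, 27.6 and 24.3 with DMSO. Tet2 exceeded Tet3 in every DMSO library (ratios 1.26, 1.40 and 1.20), while in every oligomycin library Tet3 exceeded Tet2 (ratios 0.834, 0.675 and 0.973). Within PRC2 the ratio of Ezh2 to Eed was 0.344, 0.357 and 0.240 with oligomycin and 0.543, 0.442 and 0.428 with DMSO, while that of Ezh2 to Suz12 overlapped between the groups (0.381 to 0.581 with oligomycin and 0.574 to 0.630 with DMSO). Uhrf1 and Dnmt1 were nearly equal in DMSO libraries (0.996, 0.964 and 1.04) and Uhrf1 was the lower of them with oligomycin (0.938, 0.769 and 0.833). Kdm6b stood at 0.661, 0.683 and 0.449 of Kdm6a with oligomycin and 0.247, 0.428 and 0.305 with DMSO, and Dnmt1 exceeded Tet2 13.6-, 7.63- and 9.22-fold with oligomycin and 21.5-, 19.8- and 20.3-fold with DMSO. Of 10 ratios compared, 9 did not overlap between the groups, each with p = 0.1 in a 2-sided exact permutation test on log2(FPKM + 1) (0.111 after Benjamini-Hochberg adjustment over the 10). This is the smallest p that 3 libraries against 3 allow, so no ratio could pass 0.05. Where a member lower in every oligomycin library was divided by a gene higher in each (Ezh2 by Kdm6b or Ezh1, Dnmt1 by Dnmt3a, Tet2 or Tet3), separate groups follow from the separate groups of both genes and add no further evidence. The ratio of Ezh2 to Suz12 had an exact p of 0.2.

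**Figure D3:**
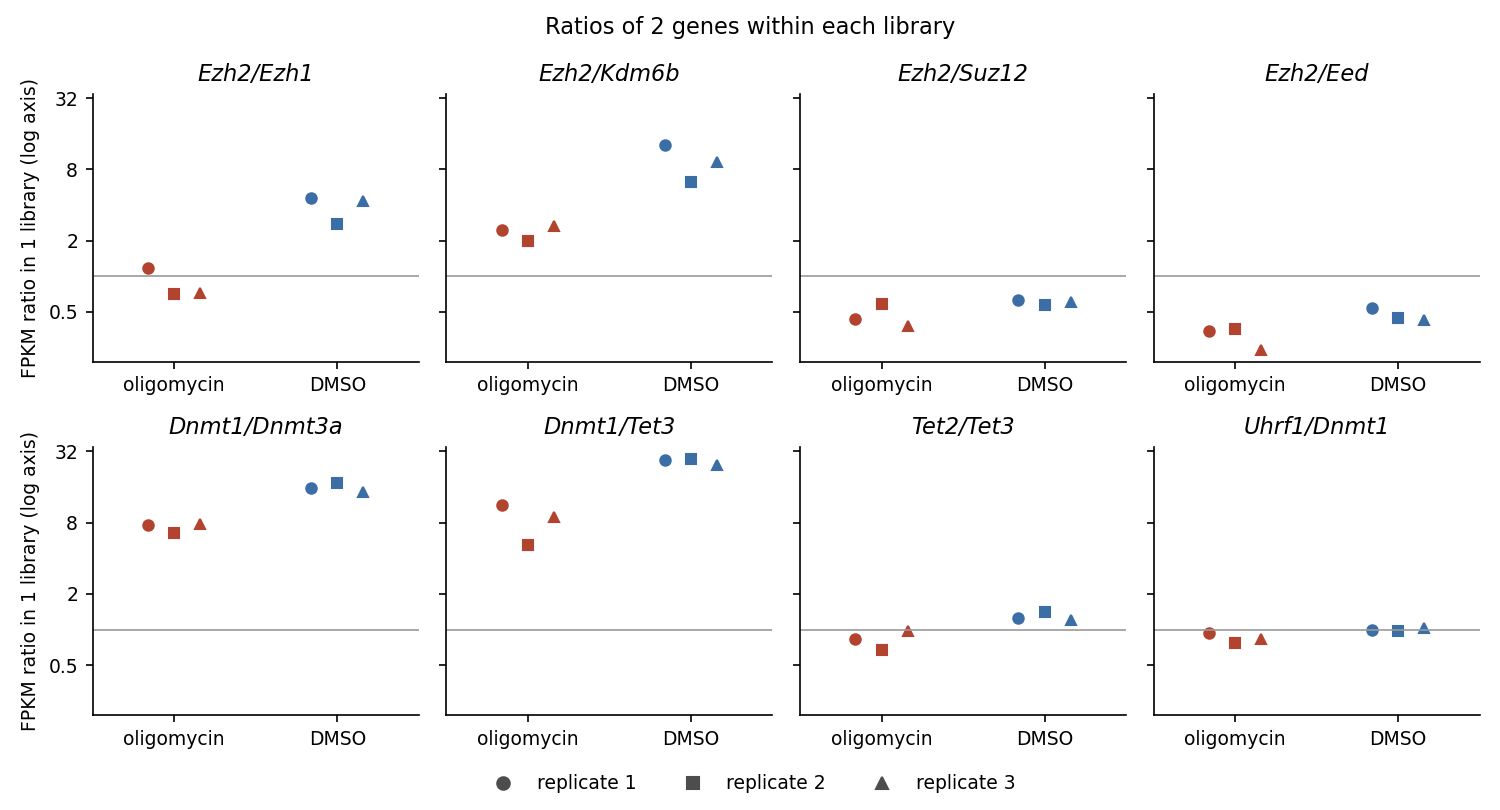
Ratio of the FPKM of 2 genes within each of the 3 oligomycin and 3 DMSO libraries (y axis: log scale; grey line at 1; symbols mark the column number). The ratio of Ezh2 to Ezh1 lies between 0.707 and 1.18 with oligomycin and between 2.77 and 4.57 with DMSO, and the ratios of Ezh2 to Suz12 overlap.

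Genes of the cell cycle moved with the falling members. Of 48 tested genes of a cell cycle and replication list, 40 fell and 0 rose (median log2 change -0.80, against -0.00 for all tested genes). Among all tested genes 16.1% fell and 14.0% rose. In 42 of the 48 the groups did not overlap, which held for 47.3% of all tested genes. The genes with the smallest p, Plk1, Cdc20 and Aurka, drive or end mitosis; they averaged 8.56 ± 1, 20.9 ± 0.410 and 14.1 ± 0.271 FPKM with oligomycin and 42.6 ± 3.78, 95.6 ± 7.12 and 56.5 ± 1.55 FPKM with DMSO (log2 changes -2.19, -2.14 and -1.93). Leave-one-out fits gave 29 (without DMSO replicate 3) to 43 (without oligomycin replicate 1) genes of the list that fell. The mean log2 level of the list, relative to the 6 libraries, was -0.30, -0.74 and -0.54 in oligomycin replicates 1, 2 and 3 and 0.50 to 0.54 in the DMSO libraries. Replicate 1 was likewise nearest to DMSO among the oligomycin libraries for 5 of the 6 members with lower means, and replicate 2 was the lowest for 4 of these 6 and the highest for 3 of the 4 members with higher means. The part of the share of dividing cells in these results was not tested.

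Set against that list within each library, none of the 6 members with lower means had a lower average with oligomycin. The log2 level of Ezh2 minus the list's mean was -0.84, -0.57 and -1.02 with oligomycin and -0.80, -1.20 and -0.93 with DMSO. These values overlap (difference 0.16, exact p = 0.5), and the change of Ezh2 ranked inside the list, with 23 of the 48 genes more negative. Uhrf1 stood 1.47, 1.39 and 1.24 above the list's mean with oligomycin and 1.06, 1.14 and 1.12 above it with DMSO (difference 0.26, exact p = 0.1). By rank, however, the change of Uhrf1 (-0.79) lay in the middle of the list, with 24 of its genes more negative and 24 less, next to the median of -0.80. Dnmt1, Suz12 and Eed were higher relative to the list with oligomycin by 0.50, 0.53 and 0.72, each without overlap (exact p = 0.1, the smallest possible). Hells differed by 0.39 with overlapping groups (exact p = 0.2). The changes of Dnmt1, Suz12 and Eed (-0.55, -0.52 and -0.33) still ranked inside the list. Its genes less negative numbered 13, 10 and 3, and those more negative 35, 38 and 45. The list's mean includes mitotic genes with large falls (Ccnb2, -2.41). Among its replication genes Pcna changed by -0.55, Mcm6 by -0.06 and Rrm2 by -1.37. The offsets therefore depend on the genes listed, and a difference from replication genes alone was not tested. The members with higher means lay 1.49 (Tet2) to 2.05 (Tet3) higher relative to the list, and no list gene had a change as high as theirs. Over these 10 comparisons the adjusted exact p was 0.125 at the lowest.

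Around PRC2, 4 of 13 tested genes of a list fell and 2 rose, with a median of -0.15. The list joins partners of PRC2 with Kdm6a and Uty, relatives of Kdm6b, which were not called. For comparison, 16.1% of all tested genes fell and 14.0% rose, so the number that rose is near the background. Phf19, a Polycomb-like protein that brings PRC2 to chromatin, fell to 3.86 ± 1.28 FPKM with oligomycin, against 9.22 ± 1.57 FPKM with DMSO (adjusted p = 0.00660), in all 14 alternatives. Its relative Phf1 rose, at 2.93, 12.6 and 7.60 FPKM with oligomycin and 1.11, 2.63 and 2.28 FPKM with DMSO (log2 change 1.40, adjusted p = 0.0342). It was not called without oligomycin replicate 2 or 3 or DMSO replicate 1 or 3 (adjusted p = 0.0724, 0.0974, 0.107 and 0.0684). Jarid2, a subunit of a PRC2 variant, fell to 5.04 ± 0.939 FPKM with oligomycin, against 7.79 ± 0.797 FPKM with DMSO, and the histone-binding subunit gene Rbbp7 to 113 ± 14.8 FPKM with oligomycin, against 158 ± 5 FPKM with DMSO. Both lost their calls without 1 or more libraries (highest adjusted p 0.0909 and 0.0852). Aebp2, the partner of Jarid2, was named after its values were seen: it fell by 0.38 (adjusted p = 0.0477), and was called in 7 of 14 alternatives (adjusted p 0.0534 to 0.189 under quantile normalization, with no intensity trend, and without oligomycin replicate 2 or 3 or any 1 DMSO library). Mtf2, another Polycomb-like gene, had a log2 change of 0.00 (95% interval -0.25 to 0.26). The number of partners that fell was 1 without oligomycin replicate 3, DMSO replicate 1 or DMSO replicate 2, and 2 under quantile normalization.

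PRC1 is the complex that ubiquitinates histone H2A at Polycomb sites. Most genes of a list of PRC1 and of H2A deubiquitination (Bap1, Asxl1 and Asxl2, none called) were not called. Of 23 tested, 2 rose and 3 fell (median 0.11), both below the 14.0% and 16.1% of all tested genes. Bmi1, a partner of the RING1 ligases, rose, at 20.9 ± 3.60 FPKM with oligomycin and 12.2 ± 1.56 FPKM with DMSO (adjusted p = 0.00981). Kdm2b, which takes variant PRC1 to unmethylated CpG islands, had 10.9, 10.0 and 9.81 FPKM with oligomycin and 22.1, 20.3 and 21.6 FPKM with DMSO. Replicates of Kdm2b were tight in both groups, and it fell by 0.99 (SE 0.11, adjusted p = 0.000431). Pcgf3 and Pcgf5, subunits of variant PRC1, each fell by 0.51 (adjusted p = 0.0196 and 0.0391). Bmi1 and Kdm2b were called in all 14 alternatives; Pcgf3 and Pcgf5 lost their calls without 1 or more libraries (highest adjusted p 0.0794 and 0.125).

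Most other genes of DNA methylation were not called, as were 6973 of the 9986 tested genes. Of 20 tested, 2 rose and 1 fell (median 0.01), both below the 14.0% and 16.1% of all tested genes. Mbd2, a reader of methylated DNA, had 69.2, 66.4 and 77.4 FPKM with oligomycin and 101, 98.5 and 102 FPKM with DMSO (log2 change -0.50, adjusted p = 0.0114). It was not called under quantile normalization (adjusted p = 0.0561) or without DMSO replicate 3 (0.0539). Smug1, a glycosylase of DNA repair, and Zbtb4, a zinc finger reader of methylated DNA, rose by 0.92 and 0.88 (adjusted p = 0.00601 and 0.0243), and Zbtb4 lost its call without any of 4 libraries (up to 0.0811). Uhrf2, the paralog of Uhrf1, averaged 32.2 ± 4.18 FPKM with oligomycin and 33.2 ± 0.980 FPKM with DMSO (log2 change -0.05, 95% interval -0.33 to 0.23). Cdca7, the partner of HELLS, averaged 56.5 ± 12.5 FPKM with oligomycin and 52.9 ± 1.63 FPKM with DMSO (log2 change 0.07).

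Among 37 further histone methyltransferase and demethylase genes, 9 rose and 3 fell (median 0.12), where 14.0% of all tested genes rose and 16.1% fell. Mll1 and Mll3 (also Kmt2a and Kmt2c), which methylate H3K4 at active genes, rose by 1.18 and 0.83 (adjusted p = 0.00294 and 0.00304), and Jhdm1d (also Kdm7a), a demethylase of repressive marks, by 0.91 (adjusted p = 0.00213). Suv39h1 and Suv39h2, which place H3K9 methylation in heterochromatin, fell by 0.73 and 0.75 (adjusted p = 0.00402 and 0.00969), and Jmjd6 by 0.87 (adjusted p = 0.00282). These 6 were called in every alternative in which they were tested. The other genes of the list that rose were Suv420h1, Mll2, Kdm5d, Kdm4a, Kdm5a and Kdm5b. Their log2 changes were 0.85, 0.79, 0.62, 0.61, 0.49 and 0.33, with adjusted p from 0.00752 (Kdm4a) to 0.0494 (Kdm5b).

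The methyl donor of DNMT and EZH enzymes is S-adenosylmethionine, and 2-oxoglutarate is the cosubstrate of TET and KDM6 enzymes. Of 17 tested genes of a list around the supply and turnover of these compounds, 3 fell, near the 16.1% of all tested genes. In the same list 1 rose, below the 14.0% (median -0.02). Mat2a, which makes S-adenosylmethionine, averaged 93.9 ± 15.4 FPKM with oligomycin and 91.2 ± 15.7 FPKM with DMSO (adjusted p = 0.865). Ahcy, which clears the inhibitory product of methylation, fell to 11.1 ± 0.935 FPKM with oligomycin, against 17.8 ± 2.29 FPKM with DMSO (adjusted p = 0.00873). Mtr, methionine synthase, rose by 0.69 (adjusted p = 0.00242). Idh1, the cytosolic enzyme that makes 2-oxoglutarate, had 1.83, 2.97 and 3.25 FPKM with oligomycin and 9.94, 8.49 and 8.65 FPKM with DMSO (log2 change -1.46, SE 0.18, adjusted p = 0.000697), and Got2, a mitochondrial aminotransferase, fell by 0.73 (adjusted p = 0.0211; 0.0635 to 0.0675 without oligomycin replicate 3, DMSO replicate 1 or DMSO replicate 3).

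**Figure D4:**
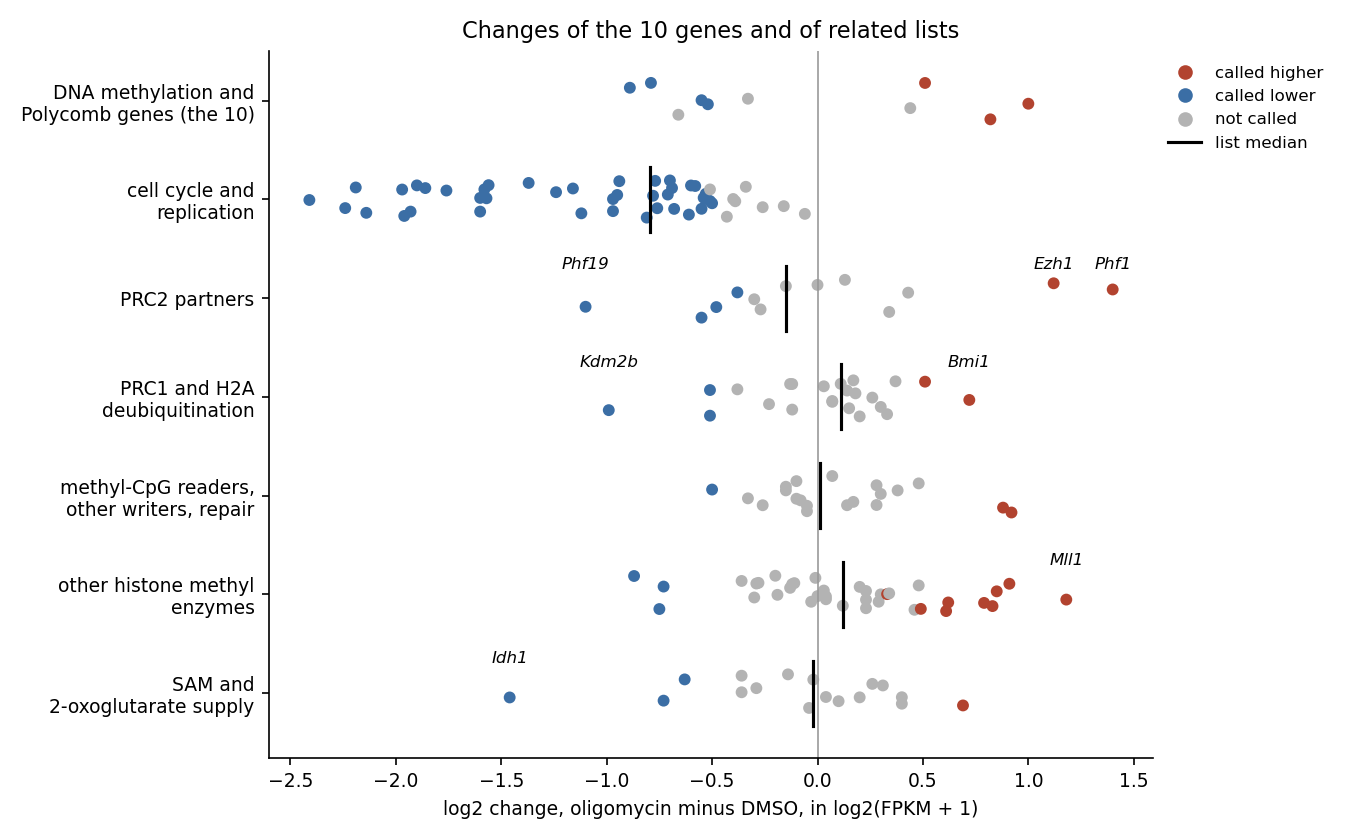
Fitted changes (x axis: oligomycin minus DMSO in log2(FPKM + 1)) of the 10 genes and of the tested genes of 6 related lists; points are genes, coloured by call, with vertical scatter only for legibility, and bars mark list medians. All 48 cell cycle genes lie below 0 (median -0.80), while the medians of the other 5 lists lie between -0.15 and 0.12.

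The rows whose profile over the 6 libraries came closest to a member's, by the root mean square difference of centred log2(FPKM + 1), were Nlgn2 and Chrm4 for Uhrf1 (0.0471 and 0.0520), Hist2h2ab and Atad5 for Hells (0.0884 and 0.103) and Rad21 and Fuca2 for Ezh2 (0.0849 and 0.0855). For Tet3 they were 6330403M23Rik and Pag1 (0.0451 and 0.0830), for Dnmt1 Mrpl28 and Actb (0.0303 and 0.0323), and for Dnmt3a Camk1d and Tmem104 (0.0268 and 0.0424). Such closeness was common: 1553 rows lay within 0.2 of Dnmt1 and 1555 of Dnmt3a, against 216 of Ezh2, 158 of Kdm6b and 119 of Tet3.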

How the data were processed

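The deposited table holds FPKM for 10041 gene rows and 6 libraries, as its XLOC identifiers and the tools in the submitters' processing notes show (Cuffdiff 2.2.1.3, Cuffnorm 2.2.1.1, Cufflinks 2.2.1.0 and TopHat2 2.1.0, listed with no roles; build GRCm38). Settings, annotation and strand are not given there. Columns were mapped to their group only, since their numbers are in no sample title; the titles share a number between a DMSO and an oligomycin sample, but no column could be linked to one, so libraries were treated as unpaired. Low values shared no common step between libraries (against oligomycin replicate 1, no more than 4 of the 29 to 113 low rows had the same ratio), so depth is unknown and no counting interval is given.

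Rows with at least 1 FPKM in at least 3 of 6 libraries went on the scale log2(FPKM + 1) into limma 3.58.1 (R 4.3.3), with an intensity trend, group as the only term, 2-sided p and Benjamini-Hochberg adjustment over 9986 rows; called means adjusted p under 0.05. The procedure was also run on simulated data with independent noise in each gene, which real libraries need not have. No result here rests on that run. Ratios used exact permutation tests (scipy 1.17.1). Starts in the table count from 0 and are printed from 1. Symbols of lists were also matched by RefSeq synonyms at the same locus, and genes in combined rows were left out. The 10 genes, the lists, the ratios and the motifs were chosen with earlier results of these data known. Beside the members, the text names up to 3 called genes per list and direction with the smallest p, and markers as fixed lists. Dnmt3b, Uhrf2, Cdca7, Mtf2, Mat2a and Aebp2 were added after their values were seen. So were the other histone methyltransferase and demethylase genes that rose (Suv420h1, Mll2, Kdm5d, Kdm4a, Kdm5a and Kdm5b). Ccnb2, Pcna, Mcm6 and Rrm2 of the cell cycle list were also named outside the rule, Ccnb2 and Mcm6 having its lowest and highest change. Some genes of these lists are not reported here.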

Additional observations from a re-analysis of the deposited data

How the results depend on the processing

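Over all tested genes 1403 were called higher and 1610 lower. Leaving out each library in turn gave 780 to 1387 higher and 989 to 1861 lower, and among the 10 genes 1 to 4 higher (3 with all libraries) and 2 to 5 lower (4 with all libraries), with the low ends at 1 without DMSO replicate 1 and 2 without DMSO replicate 2. Over all genes, counts were more than 1.5 times smaller without DMSO replicate 1 (816 higher, 1071 lower), replicate 3 (780 higher, 989 lower) and, for lower calls, replicate 2 (1040). The cause was not tested; these fits have 5 libraries. The other alternatives were a pseudocount of 0.1, quantile normalization, median-of-ratios scaling, a 5 FPKM minimum, no filter, no intensity trend and no rows sharing a locus. They kept the counts over all genes and over the 10 genes within 1.5 times. In the related lists, PRC2 partners called lower numbered 2 under quantile normalization (4 reported), and DNA methylation genes called lower numbered 0 (1 reported) there, and called higher 0 (2 reported) at the 5 FPKM minimum, where fewer genes are tested. Kdm6b was too low to be tested at 5 FPKM. None of the 139 alternative values of the members and none of the 180 of the ratios changed sign. With the column number as a replicate block, 1668 genes were called higher and 1864 lower, and 4 members higher and 6 lower, Hells, Tet2 and Eed being called in addition (adjusted p = 0.0197, 0.0312 and 0.0460). Pairing by column number was not established: deviations of same-numbered libraries correlated at 0.056, 0.247 and 0.132, and oligomycin replicates 2 and 3 correlated best with their own number, but replicate 1 with DMSO replicate 3 (0.117). Unknown depth and 3 libraries per group limit what can be told of small changes.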
